A study of Mus musculus with 20 samples.

Results

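The 10 genes described here encode core proteins of the basement membrane: the nidogens Nid1 and Nid2, the laminin chains Lama1, Lama2, Lamb1, Lamb2 and Lamc1, the collagen IV chains Col4a1 and Col4a2, and perlecan (Hspg2). They are 10 of the 55536 genes in the deposited count table and were taken by symbol. The set was selected on function and on 1 measured value, the difference of the LPS change of Nid1 between genotypes, which had been seen in these same libraries. Nid1's genotype-by-LPS values are therefore given as a description, with no test, and the same holds for the genotype-by-LPS values of the other 9 genes.

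RNA was sequenced from the hippocampus of 12-week-old male C57BL/6J mice, 7 days after 1 intraperitoneal injection. The groups were wild-type (WT) mice given saline, WT mice given 3 mg/kg lipopolysaccharide (LPS, an endotoxin of the outer membrane of Gram-negative bacteria), Fkbp5 knockout (KO) mice given saline and Fkbp5 KO mice given the same dose of LPS. Each group had 5 libraries. All mice carried the same strain label, and the sources used here give neither the deleted exons nor whether each library came from a different animal, so p-values measure the spread between libraries, which may be technical in part.

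Basement membranes are thin sheets of matrix that surround brain capillaries, arterioles and the pial surface. Laminin chains assemble into heterotrimers that polymerise on cells, collagen IV chains form a covalent network, and the nidogens and perlecan bind to both and hold the networks together. In the brain these proteins are made by endothelial cells, pericytes and smooth muscle, by astrocytes at their endfeet and by meningeal fibroblasts, so in whole hippocampus a lower level can mean fewer cells of a type or less RNA per cell, which cannot be told apart.

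All coordinates are on mm10 (GRCm38) with the GENCODE M21 annotation, and all 10 genes are protein coding. Nid1 (ENSMUSG00000005397) lies at chr13:13437551-13512269 on the plus strand and Nid2 (ENSMUSG00000021806) at chr14:19751265-19811787, also plus. Of the laminin genes, Lama1 lies at chr17:67697259-67822647 (plus), Lama2 at chr10:26980036-27619758 (minus), Lamb1 at chr12:31265234-31329644 (plus), Lamb2 at chr9:108479736-108490530 (plus) and Lamc1 at chr1:153218922-153332786 (minus). Lama1 is on the chromosome of Fkbp5, 39.2 Mb away. Hspg2 lies at chr4:137468769-137570630 (plus). Col4a1 (chr8:11198423-11312826, minus) and Col4a2 (chr8:11312805-11449287, plus) are transcribed head to head, and their annotated exons share 22 bases. Exons of other genes on the opposite strand overlap 437 exonic bases of Nid2 (Rtraf), 631 of Lama2 (Gm48084), 143 of Nid1 (Gm48682) and 43 of Col4a2 (Gm15419). The strand setting of the counting is not given in the sources used here, so reads from these stretches are uncertain.

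The promoter windows of Col4a1 and Col4a2 are shown because their levels moved together across libraries, and that of Nid1 because its levels carried the LPS difference. Each runs from 250 bases before to 50 after the RefSeq start (GRCm38.p6), 5′ to 3′ on the gene's own strand. Capitals mark GC boxes (GGGCGG) and CCAAT boxes (CCAAT), read on both strands. The Col4a1 window (chr8:11312777-11313076, minus strand) and the Col4a2 window (chr8:11312555-11312854, plus strand) overlap. The Nid1 window is chr13:13437352-13437651, plus strand.
Col4a1: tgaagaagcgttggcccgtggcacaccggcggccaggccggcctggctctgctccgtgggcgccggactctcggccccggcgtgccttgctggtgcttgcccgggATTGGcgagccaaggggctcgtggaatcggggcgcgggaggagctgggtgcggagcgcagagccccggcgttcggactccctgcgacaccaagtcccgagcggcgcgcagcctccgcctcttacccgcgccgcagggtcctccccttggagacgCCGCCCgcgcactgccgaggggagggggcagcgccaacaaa
Col4a2: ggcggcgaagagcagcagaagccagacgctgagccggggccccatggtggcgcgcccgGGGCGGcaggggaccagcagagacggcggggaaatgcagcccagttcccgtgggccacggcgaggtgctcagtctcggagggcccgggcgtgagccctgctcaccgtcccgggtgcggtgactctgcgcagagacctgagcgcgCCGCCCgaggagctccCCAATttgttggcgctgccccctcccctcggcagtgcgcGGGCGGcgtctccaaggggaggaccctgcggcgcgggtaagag
Nid1: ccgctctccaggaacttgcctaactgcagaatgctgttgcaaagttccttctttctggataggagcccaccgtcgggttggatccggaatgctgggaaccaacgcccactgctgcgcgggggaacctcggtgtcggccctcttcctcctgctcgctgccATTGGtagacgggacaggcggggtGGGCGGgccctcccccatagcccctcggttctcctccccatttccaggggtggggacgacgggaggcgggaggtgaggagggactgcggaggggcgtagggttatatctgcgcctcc
The Col4a1 window held 1 GC box and 1 CCAAT box, the Col4a2 window 3 and 1, and the Nid1 window 1 and 1. The GC box of Col4a1 lies where its window overlaps that of Col4a2. It is the same site as the last GC box of Col4a2, read on the other strand. Among 7 of the 10 genes with a RefSeq window, GC boxes were also found in Lama2 (1), Lamb1 (2) and Hspg2 (5) and in none of Lamb2, and a CCAAT box in Lamb1 (1). Of 32851 mouse promoter windows of the same length, 35.7% held a GC box and 37.4% a CCAAT box. A TATA box (TATAAA, in 13.6% of all windows) and an AP-1 site (TGANTCA, in 7.81%) had no match in the 7 windows. The windows of Col4a1 (74.0% GC), Col4a2 (73.7%), Hspg2 (70.3%), Nid1 (64.7%) and Lamb1 (63.7%) were richer in G and C than the median window (52.7%). Those of Lama2 (50.3%) and Lamb2 (44.0%) were poorer.

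The libraries held 16652992 to 27230202 counted reads (median 19642484). Fkbp5 itself was at 56.7 to 73.4 CPM (counts scaled to library size with edgeR's TMM factors) in the 10 WT libraries and 25.1 to 36.0 in the 10 KO libraries, lower in every KO library but not absent. Hippocampal neuron markers were abundant in all libraries (summed over 10 genes, 1084 to 1679 CPM, with Neurod2 at 244 and Prox1 at 129 CPM on average). Across all genes, replicates 1 and 2 of every group stood apart from replicates 3 to 5 on the first principal component, which held 52.9% of the variance, and mitochondrial transcripts made up 4.66 to 5.68% of counts in the former and 8.41 to 11.4% in the latter. The labels do not say what sets these libraries apart, and every group has both kinds, so member values are given below for both. In all, 16419 genes were tested, among them all 10 members.

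**Figure D1:**
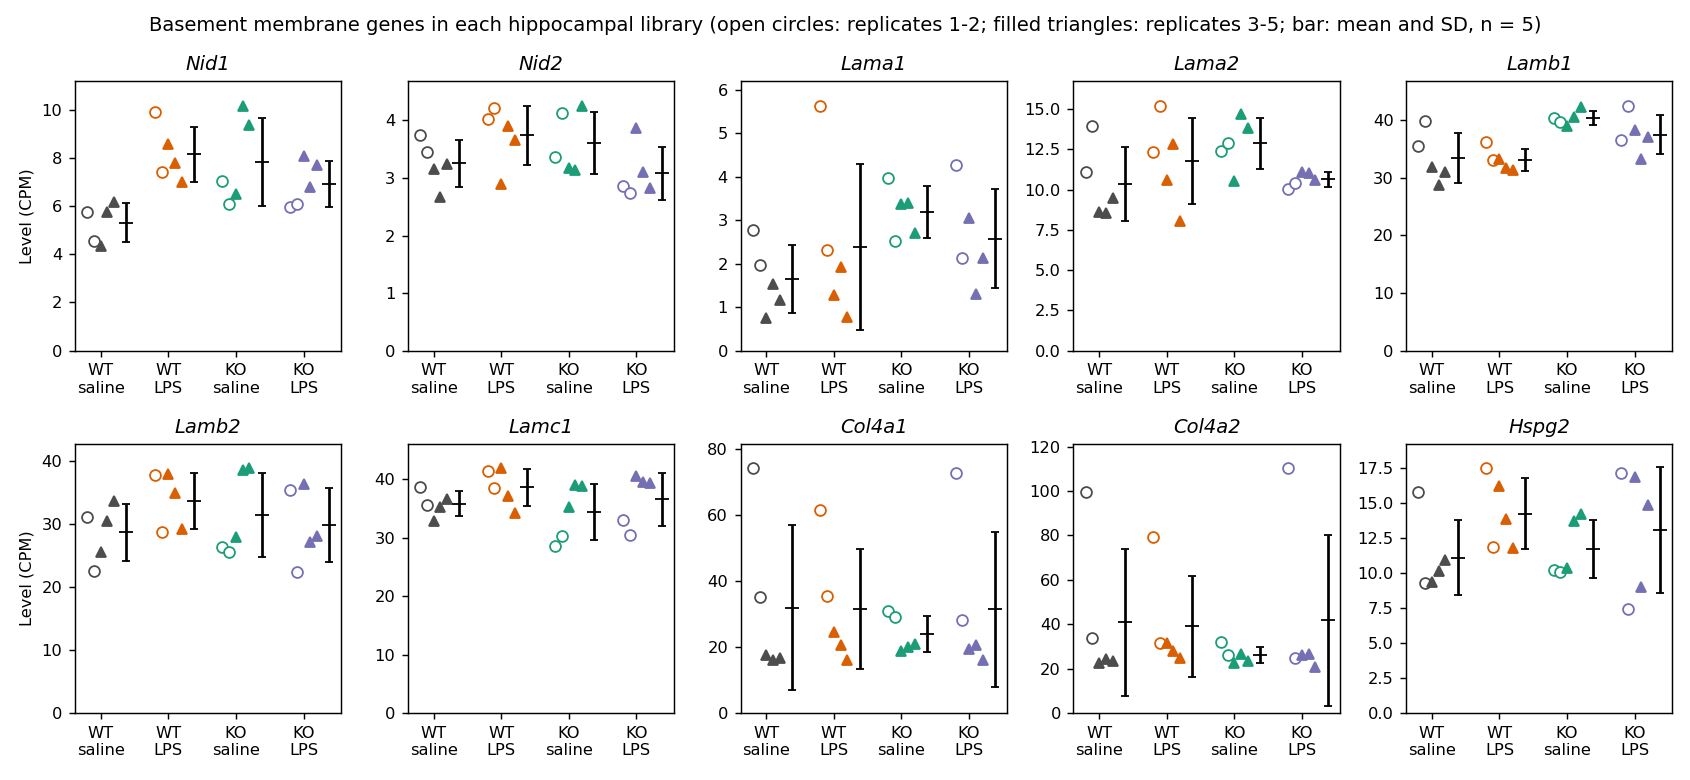
Level of each of the 10 genes (y axis, CPM) in every library of the 4 groups (x axis); open circles are replicates 1 and 2, filled triangles replicates 3 to 5, and the bar at the right of each group its mean and SD (n = 5). The WT LPS libraries of Nid1 sit above all WT saline libraries, Lamb1 is higher in most KO libraries, and Col4a1 and Col4a2 have 3 libraries far above the rest.

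Per kilobase of exon, the order by median over 20 libraries was Lamb2 (4.92 RPKM, which is CPM per kilobase, range 3.69 to 6.40), Lamc1 (4.45, 3.45 to 5.06), Col4a2 (3.996, 3.18 to 16.7), Lamb1 (3.66, 2.89 to 4.29) and Col4a1 (2.80, 2.16 to 9.95). A gap followed: Nid1 (0.991 RPKM, 0.623 to 1.46), Hspg2 (0.828, 0.522 to 1.22), Lama2 (0.677, 0.491 to 0.931), Nid2 (0.639, 0.515 to 0.823) and Lama1 (0.230, 0.0772 to 0.583). The lowest Col4a1 library lay above the highest Nid1 library, whereas every other pair of neighbours in this order overlapped. Within families the levels were uneven. Lamb2 exceeded Lamb1 by a median ratio of RPKM of 1.47 (0.861 to 1.86), Lama2 exceeded Lama1 by 3.03 (1.29 to 6.81), and Nid1 exceeded Nid2 by 1.55 (0.984 to 2.42).

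In none of the 6 tested comparisons did any of the 10 genes pass edgeR's quasi-likelihood test after Benjamini-Hochberg adjustment over the 16419 genes. This count of 0 stands beside few calls over the whole table: LPS against saline called 0% of genes in WT and 0.00609% in KO, KO against WT called 0.171% after saline and 0.146% after LPS, the LPS difference over both genotypes (LPS main effect) called 0.0426%, and the KO difference over both treatments (KO main effect) called 0.439%. Of the 9 members other than Nid1, whose pairwise differences make up the value it was chosen by, an unadjusted p under 0.05 was reached by 2 (Lama1 and Lamb1) for KO against WT after saline, by 1 (Lamb1) for the KO main effect and by 0 in the other 4 comparisons. The shares of all genes under that threshold were 2.67% and 4.79% in the same order, and 2.07% for LPS in WT, 1.75% for LPS in KO, 3.27% for KO against WT after LPS and 2.71% for the LPS main effect. DESeq2's Wald test called 0 members in every comparison, and 0.743% of all genes for the KO main effect. Some other fits called members of the genotype comparisons. With limma-voom and quality weights, 4 were called for KO against WT after saline, Nid1 among them (2.2% of all genes). Nothing is read from that call of Nid1, since this difference is part of the value it was chosen by. The same fit called 2 for the KO main effect (3.26%). With a term for the 2 kinds of library described above, 1 was called for the KO main effect (0.926%).

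Nid1 was higher after LPS than after saline in WT hippocampus, and in KO hippocampus it was not. The WT saline libraries (replicates 1 to 5) were at 5.76, 4.57, 4.32, 5.74 and 6.18 CPM, and the WT LPS libraries at 9.90, 7.43, 8.57, 7.80 and 6.98 CPM. Every WT LPS library lay above every WT saline library. The KO saline libraries were at 7.02, 6.09, 6.49, 10.2 and 9.34 CPM and the KO LPS libraries at 5.94, 6.06, 8.07, 6.77 and 7.71 CPM. The KO groups overlapped, with KO saline replicates 4 and 5 above all KO LPS libraries. On the log2 scale the LPS difference was 0.62 ± 0.16 (SE) in WT and -0.18 ± 0.16 in KO, which leaves a difference between them of -0.79 ± 0.23. No gene of the 16419 passed the threshold for this genotype-by-LPS difference (0%, and 1.11% at an unadjusted p under 0.05). Since this difference chose Nid1, nothing is read from these shares. KO saline libraries were above WT saline by 0.56 ± 0.16, and KO LPS libraries differed from WT LPS by -0.24 ± 0.16.

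The LPS differences of Nid1 had the same signs in both kinds of library. Both kinds had entered the value that Nid1 was chosen by, so this is not a replication. From mean log2 CPM, the LPS difference in replicates 1 and 2 was 0.74 in WT and -0.12 in KO, and in replicates 3 to 5 it was 0.54 in WT and -0.18 in KO. KO saline replicates 4 and 5 carried part of its size: without them the genotype-by-LPS difference was -0.54 ± 0.21. The effects that did not enter the choice of Nid1 were small, with an LPS main effect of 0.22 ± 0.11 (adjusted p = 1.00, edgeR) and a KO main effect of 0.16 ± 0.11 (adjusted p = 1.00). Groups that did not overlap were seen for 0.445% of all genes for LPS in WT, 0.39% for LPS in KO, 0.737% for KO against WT after saline and 0.828% after LPS. Nid1, for LPS in WT, was the only member without overlap in any of these 4 comparisons. Nothing is read from this, since the LPS difference in WT is part of the value Nid1 was chosen by.

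Markers of meningeal fibroblasts were set beside Nid1 library by library. The 3 libraries with the highest Nid1 (KO saline 4 and 5 and WT LPS 1) also had the 3 highest summed levels of 13 meningeal markers (179 to 227 CPM, against 68.7 to 160 in the other 17 libraries). They were also the highest in 7 border macrophage markers (11.9 to 14.4 CPM, against 4.57 to 10.3). Summed meningeal markers ranged from 68.7 to 146 CPM in WT saline, 95.4 to 184 in WT LPS, 91.5 to 227 in KO saline and 104 to 148 in KO LPS. Of the 13, Dpt had libraries at 0, and the other 12 were above 0 in every library. Border macrophage markers ranged from 4.98 to 10.3 CPM in WT saline, 4.57 to 13.6 in WT LPS, 5.28 to 14.4 in KO saline and 5.04 to 8.47 in KO LPS, with all 7 above 0 in every library. Of the 12 meningeal markers tested, 11 had a log2 LPS difference above 0 in WT (median 0.39) and 0 did in KO (median -0.43), with 0 called in either. The summed meningeal markers had medians of 138 CPM in WT saline, 131 in WT LPS, 160 in KO saline and 133 in KO LPS. In WT replicates 1 and 2 they were at 113 and 68.7 CPM after saline and 184 and 95.4 CPM after LPS. In WT replicates 3 to 5 they were at 138, 146 and 139 CPM after saline and 131, 145 and 104 CPM after LPS. Nid1 in WT replicates 1 and 2 was at 5.76 and 4.57 CPM after saline and 9.90 and 7.43 CPM after LPS. In WT replicates 3 to 5 Nid1 was at 4.32, 5.74 and 6.18 CPM after saline and 8.57, 7.80 and 6.98 CPM after LPS. The part of meningeal fibroblasts and border macrophages in the Nid1 result was not tested.

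**Figure D2:**
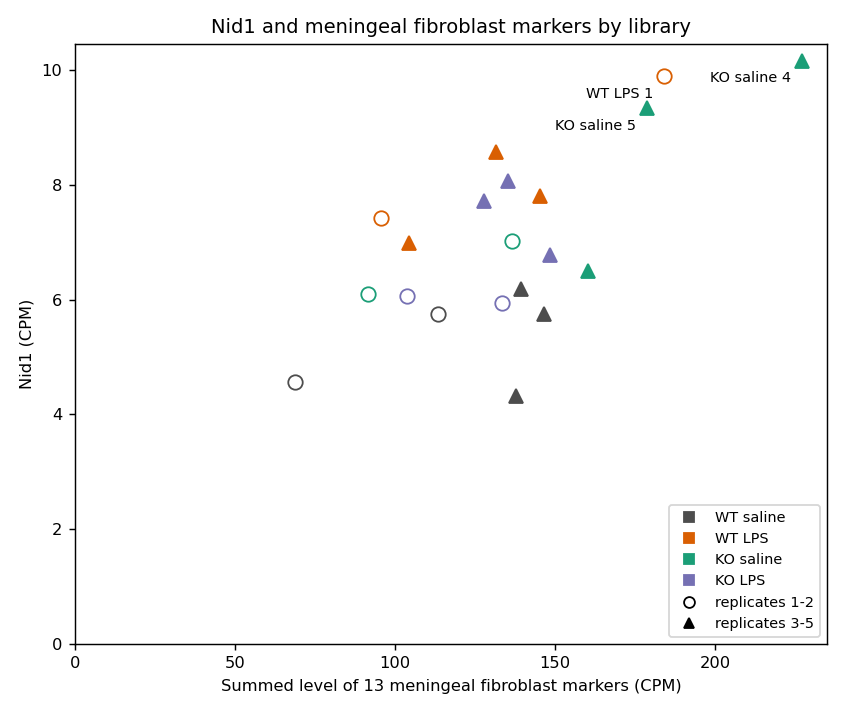
Nid1 (y axis, CPM) against the summed level of 13 meningeal fibroblast markers (x axis, CPM) in each of the 20 libraries, coloured by group; open circles are replicates 1 and 2, triangles replicates 3 to 5. KO saline 4, KO saline 5 and WT LPS 1 are highest on both axes. The WT saline libraries, with 68.7 to 146 CPM of these markers, have Nid1 at 4.32 to 6.18 CPM.

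The genes whose levels across the 20 libraries were most like those of Nid1, after subtracting the mean of replicates 1 and 2 and of replicates 3 to 5, were Cp (ceruloplasmin, Pearson r = 0.86), Zic2 (0.84), Vim (vimentin, 0.83), Slc38a2 (an amino acid transporter, 0.82), Ifitm2 (0.80), Ahnak (0.77), Olfml2a (0.77) and Aldh1a2 (a retinaldehyde dehydrogenase and 1 of the meningeal markers, 0.77). Each r was above 0.64 within replicates 1 and 2 and within replicates 3 to 5. These are descriptions over libraries that share groups and tissue composition, and carry no p. Among the other members Lamb2 was the most like Nid1 (r = 0.70, rank 30 of the tested genes), then Lama1 (0.65), Hspg2 (0.60), Lama2 (0.57) and Lamc1 (0.51). The paralog Nid2 ranked 1211 (0.36), and Col4a2 was the least alike (0.18).

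Nid2, the other nidogen, passed no test for LPS or genotype. Its levels were 2.66 to 3.75 CPM in WT saline, 2.90 to 4.22 in WT LPS, 3.13 to 4.26 in KO saline and 2.74 to 3.87 in KO LPS, so all groups overlapped. Its LPS difference was 0.20 ± 0.15 (SE) in WT and -0.23 ± 0.15 in KO on the log2 scale, both with an adjusted p of 1.00 by edgeR. The signs were those of Nid1, at smaller size in WT only. Lama1 (0.55 in WT and -0.30 in KO), Lama2 (0.19 and -0.28) and Lamb2 (0.23 and -0.07) had the same signs. Lamb1, Lamc1, Hspg2, Col4a1 and Col4a2 did not. The genotype-by-LPS difference was -0.43 ± 0.21 for Nid2, -0.85 ± 0.61 for Lama1, -0.47 ± 0.22 for Lama2 and -0.30 ± 0.22 for Lamb2.

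**Figure D3:**
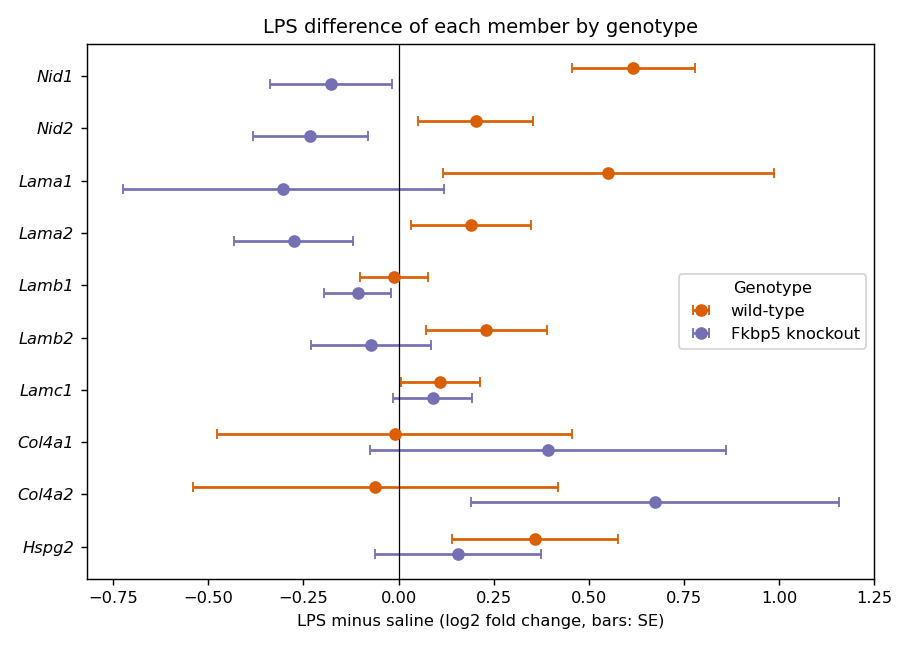
Log2 LPS-minus-saline difference (x axis) of each of the 10 genes (y axis) in WT and Fkbp5 KO hippocampus; points are edgeR estimates and bars their SE. Nid1 (0.62) and Lama1 (0.55) have the highest WT values, that of Lama1 falling to -0.05 without WT LPS 1, and the bars of Col4a1, Col4a2 and Lama1 are the widest.

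Of the laminin chains, Lamb1 had the smallest p for the KO main effect and the higher levels in KO. Lamb1 encodes the beta1 chain, found in most vascular laminins of the brain. Its WT saline libraries were at 35.5, 39.8, 31.9, 28.7 and 31.0 CPM, and its WT LPS libraries at 36.2, 33.0, 33.3, 31.7 and 31.3 CPM. Its KO saline libraries were at 40.4, 39.7, 39.0, 40.6 and 42.3 CPM, and its KO LPS libraries at 36.5, 42.5, 38.2, 33.2 and 37.1 CPM. The 10 KO libraries averaged 39.0 ± 2.84 CPM (SD, n = 10) and the 10 WT libraries 33.2 ± 3.16, with overlap between 33.2 and 39.8 CPM. Matching libraries by treatment and number, KO was the higher in 9 of 10 matches, against 4 (Col4a2 and Lamb2) to 7 (Lama1) for the other members. The labels do not call same-numbered libraries pairs, and no share of all genes stands beside this count, so nothing is read from it.

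The KO main effect on Lamb1 was 0.23 ± 0.06 (log2, SE), with an adjusted p of 0.212 by edgeR. When the replicate number entered as a block, the estimate was again 0.23 ± 0.05 and the adjusted p was 0.0381, in a fit that called 1.07% of all genes. A fit to replicates 3 to 5 alone gave 0.29 ± 0.05 (adjusted p = 0.00308, with 8.1% of genes called), and a fit to replicates 1 and 2 alone 0.16 ± 0.11 (adjusted p = 0.774, with 0.0564% called). After saline the KO difference was 0.28 ± 0.09 (adjusted p = 0.926) and after LPS 0.18 ± 0.09 (adjusted p = 1.00). The LPS difference of Lamb1 was -0.01 ± 0.09 in WT and -0.11 ± 0.09 in KO.

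Lama1, the alpha1 chain, which is best known from the pial basement membrane, was low and variable, with 12 to 143 reads a library. Its WT saline libraries were at 2.79, 1.98, 0.747, 1.54 and 1.16 CPM and its WT LPS libraries at 5.64, 2.31, 1.29, 1.92 and 0.783 CPM. Its KO saline libraries were at 3.98, 2.51, 3.37, 3.39 and 2.71 CPM and its KO LPS libraries at 4.27, 2.12, 3.05, 1.30 and 2.13 CPM. The groups overlapped, and in each group replicate 1 was the highest. The LPS difference of Lama1 in WT was 0.55 ± 0.43 (log2, SE), and without WT LPS 1 it was -0.05 ± 0.38. A fit to replicates 3 to 5 alone called 3.22% of all genes for KO against WT after saline. There Lama1 differed by 1.46 ± 0.34 (log2, SE, adjusted p = 0.0258, edgeR). In replicates 3 to 5 the summed meningeal markers were at 160, 227 and 179 CPM in KO saline and at 138, 146 and 139 CPM in WT saline. Over all libraries 11 of 12 meningeal markers were above 0 for KO against WT after saline (median log2 difference 0.47), and their part in the Lama1 values was not tested. The KO main effect was 0.52 ± 0.30 (log2, SE, adjusted p = 1.00 by edgeR) over all libraries. It was 1.07 ± 0.24 in replicates 3 to 5 alone (adjusted p = 0.0106) and 0.09 ± 0.36 in replicates 1 and 2 alone (adjusted p = 0.959). With the groups as terms in the fit, Lama1 differed between the library kinds by -0.79 ± 0.24 in replicates 3 to 5 against 1 and 2, but in KO saline the means were close (3.25 CPM in replicates 1 and 2 and 3.15 CPM in replicates 3 to 5).

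The other laminin chains passed no edgeR test for LPS or genotype over all libraries, while limma-voom with quality weights called Lama2 for KO against WT after saline (0.47, log2, adjusted p = 0.0445). Lama2, the alpha2 chain of laminins made by astrocytes and pericytes, was at 8.52 to 14.0 CPM in WT saline, 8.02 to 15.2 in WT LPS, 10.5 to 14.7 in KO saline and 10.03 to 11.1 in KO LPS. Lamb2, the beta2 chain, was at 22.6 to 33.8 CPM in WT saline, 28.8 to 37.97 in WT LPS, 25.6 to 38.9 in KO saline and 22.4 to 36.4 in KO LPS. Lamc1, the gamma1 chain shared by most laminins, was at 32.8 to 38.6 CPM in WT saline, 34.2 to 41.8 in WT LPS, 28.6 to 38.9 in KO saline and 30.5 to 40.5 in KO LPS. All groups of these genes overlapped, and their log2 differences in the 6 tested comparisons ran from -0.28 (Lama2, LPS in KO) to 0.31 (Lama2, KO against WT after saline), each with an adjusted p of 1.00 by edgeR. For Lamc1 the SE of the LPS main effect was 0.07 (log2), around an estimate of 0.10, the tightest of these 3.

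**Figure D4:**
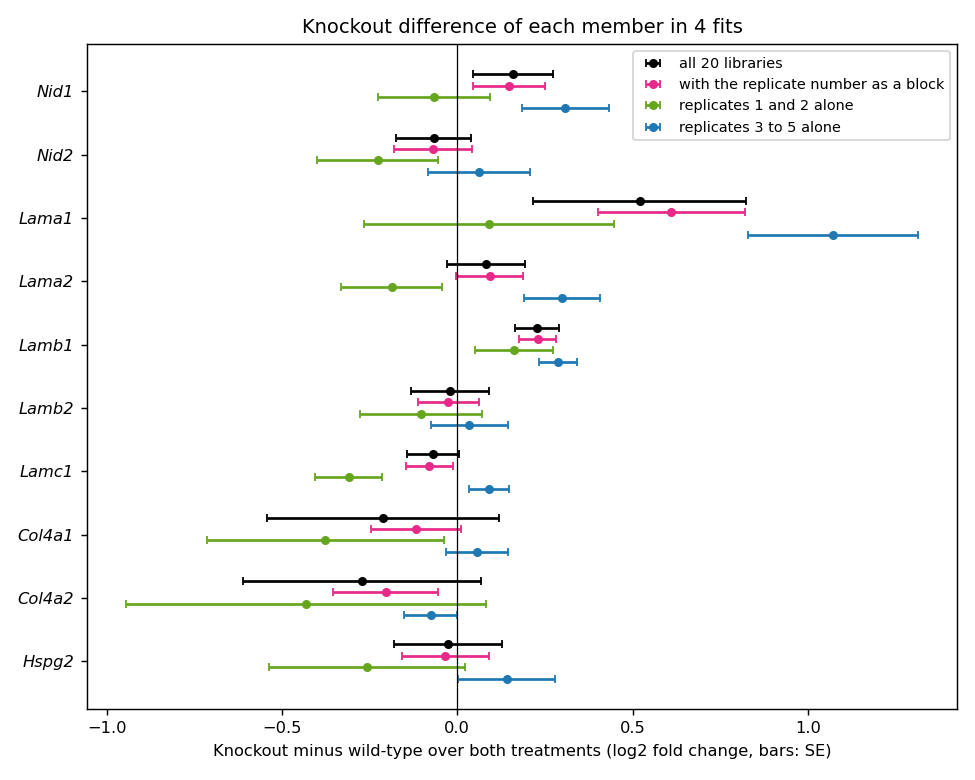
Log2 KO-minus-WT difference over both treatments (x axis) of each of the 10 genes (y axis) in 4 fits: all 20 libraries, all 20 with the replicate number as a block, replicates 1 and 2 alone and replicates 3 to 5 alone; points are edgeR estimates and bars their SE. Lamb1 is above 0 in all 4, between 0.16 and 0.29, and Lama1 is at 1.07 in replicates 3 to 5 against 0.09 in replicates 1 and 2.

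Col4a1 and Col4a2, which form the collagen IV network of vessel walls, varied more between libraries of a group than between groups. Col4a1 was at 74.3, 35.1, 17.6, 16.3 and 16.8 CPM in WT saline and at 61.6, 35.5, 24.7, 20.8 and 16.1 CPM in WT LPS. It was at 31.0, 29.1, 18.9, 20.2 and 21.0 CPM in KO saline and at 72.8, 28.4, 19.4, 20.6 and 16.2 CPM in KO LPS. Replicate 1 was far above the others in 3 groups and not in KO saline, and replicate 2 lay between replicate 1 and replicates 3 to 5 in each group. Col4a2 was at 99.7, 34.1, 22.6, 24.6 and 23.4 CPM in WT saline and at 79.5, 31.9, 31.7, 28.1 and 24.7 CPM in WT LPS. It was at 32.1, 26.4, 22.6, 26.5 and 23.8 CPM in KO saline and at 110.2, 25.0, 26.3, 26.6 and 21.1 CPM in KO LPS. The same 3 libraries were high.

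The LPS difference of Col4a2 was -0.06 ± 0.48 (log2, SE) in WT and 0.67 ± 0.48 in KO, and that of Col4a1 -0.01 ± 0.47 in WT and 0.39 ± 0.47 in KO, all with an adjusted p of 1.00 by edgeR. These values were otherwise without replicates 1 and 2. In replicates 3 to 5, from mean log2 CPM, the LPS difference of Col4a1 was 0.26 in WT and -0.10 in KO, and that of Col4a2 was 0.25 in WT and 0.01 in KO. Replicates 3 to 5 were lower than replicates 1 and 2 by -1.25 ± 0.18 for Col4a1 and -1.07 ± 0.26 for Col4a2, while the median of all genes was -0.03. For the 7 members other than these and Lama1, that difference ran from -0.19 to 0.17.

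**Figure D5:**
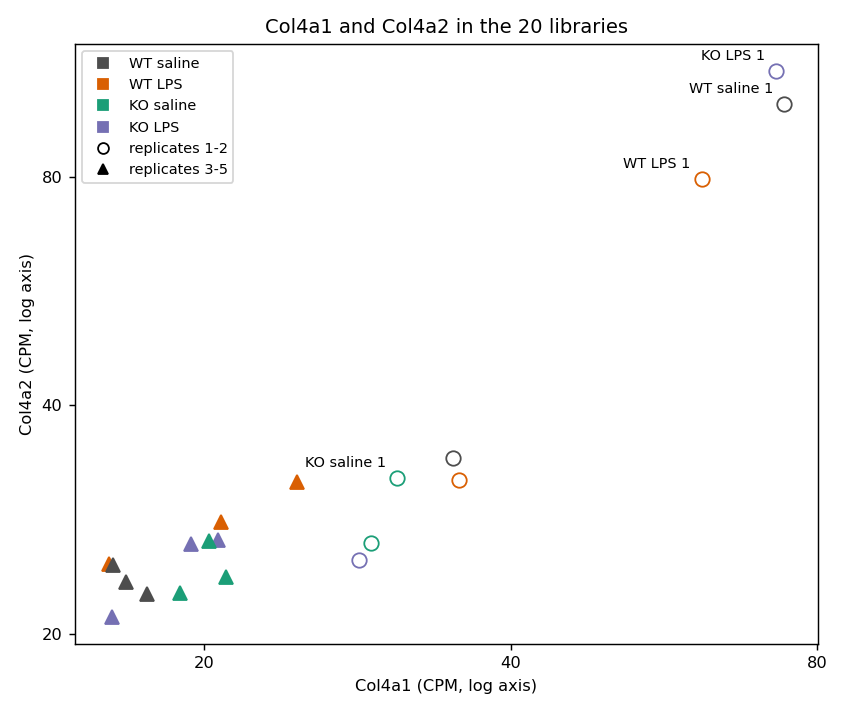
Col4a2 against Col4a1 (both axes CPM, log axes) in the 20 libraries, coloured by group; open circles are replicates 1 and 2, triangles replicates 3 to 5, and the replicate 1 libraries are named. WT saline 1, WT LPS 1 and KO LPS 1 are at 61.6 to 74.3 CPM of Col4a1 and 79.5 to 110.2 CPM of Col4a2, and KO saline 1 lies with the replicate 2 libraries.

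Col4a1 and Col4a2 varied together from library to library (Pearson r = 0.96 over 20 libraries after subtracting the mean of each library kind, a description with no p), and their RPKM ratio had a median of 0.687 (0.578 to 1.01). Over all 45 pairs of members the median r was 0.36 and 39 were above 0. WT saline 1, WT LPS 1 and KO LPS 1 differed in other ways too. They had the most genes with a read (25018, 25237 and 24903), the next being WT LPS 2 with 24360. Their TMM factors were also the highest (1.14, 1.18 and 1.19), the next being WT LPS 2 at 1.13. The 15 endothelial markers of WT saline 1, WT LPS 1 and KO LPS 1 summed to 470 to 493 CPM, against 371 to 420 in the other 5 libraries of replicates 1 and 2. Their 12 mural cell markers summed to 252 to 268 against 163 to 222. Their 8 astrocyte markers summed to 2647 to 3059 CPM, against 3756 to 4491 in those 5, and their 10 hippocampal neuron markers to 1084 to 1263, against 1360 to 1602. Of these lists only the mural marker Tagln had libraries at 0. Over all 20 libraries the endothelial sum reached 542 CPM and the mural sum 293 CPM, both in WT LPS 3. In replicates 3 to 5, Col4a1 was at most 24.7 CPM and Col4a2 at most 31.7 CPM, both in that same library. The part of cell composition, or of the other differences of these libraries, in the collagen IV levels was not tested.

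Perlecan (Hspg2), the heparan sulfate proteoglycan of the sheet, was at 15.8, 9.32, 9.34, 10.2 and 11.0 CPM in WT saline and at 17.5, 11.9, 16.2, 13.9 and 11.8 CPM in WT LPS. It was at 10.2, 10.1, 10.4, 13.7 and 14.2 CPM in KO saline and at 17.1, 7.47, 16.8, 9.03 and 14.9 CPM in KO LPS. All groups overlapped, and WT saline 1, WT LPS 1 and KO LPS 1 were the highest of their groups. Its LPS difference was 0.36 ± 0.22 (log2, SE) in WT and 0.16 ± 0.22 in KO (adjusted p = 1.00 in both, edgeR). Hspg2 moved most closely with Lamb2 (r = 0.86 across libraries, no p).

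As a list, 7 of the 10 members had a log2 LPS difference above 0 in WT, with a median of 0.20, where 44.8% of all tested genes were above 0 and their median was -0.02. In KO, 4 of 10 were above 0 (median -0.09, all genes 0.01). For the KO main effect 4 of 10 were above 0 (median -0.02, all genes -0.01), and for the LPS main effect 7 of 10 (median 0.11, with 49.3% of all genes above 0). The genotype-by-LPS difference was below 0 for 8 of 10 (median -0.25), where 54.8% of all genes were above 0 (median 0.02). The exceptions were Col4a1 (0.40 ± 0.66, SE) and Col4a2 (0.73 ± 0.68), and without KO LPS 1 these were -0.17 ± 0.59 and -0.03 ± 0.54. Without WT saline 1 they were -0.18 ± 0.58 and 0.09 ± 0.58, and in replicates 3 to 5 alone -0.38 ± 0.18 and -0.24 ± 0.15. Nid1, chosen by the genotype-by-LPS difference, is among the 8 below 0 and among the 7 above 0 for LPS in WT. These tallies are therefore a description, and nothing is read from the shares of all genes beside them. The WT and KO LPS differences use different libraries. The KO saline libraries, however, enter both the KO LPS difference and the KO difference after saline.

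Other genes of the pathway were taken from lists that share no gene with the 10 members. Of 27 other basement membrane components 26 were tested and 0 were called in any of the 6 comparisons. Their median log2 LPS difference was 0.21 in WT, with 22 of 26 above 0, and 0.03 in KO, with 17 of 26. The smallest p-values belonged to Ecm1, a secreted matrix protein, with an LPS main effect of 0.44 ± 0.16 (adjusted p = 1.00, edgeR), and to Sparc, a collagen-binding matrix protein, at 0.28 ± 0.13. By genotype they were Smoc2, a relative of Sparc, with a KO main effect of 0.28 ± 0.11, and Vwa1, a perlecan-binding protein, at -0.26 ± 0.11.

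Among 16 of 17 tested receptors and anchors, which include the laminin-binding integrins and the dystroglycan complex, 0 were called and 12 had an LPS difference above 0 in WT (median 0.08), against 7 of 16 in KO (median -0.01). Itga3 and Itgb4 had LPS main effects of 0.19 ± 0.13 and 0.21 ± 0.14, and Itga6 and Sgcb had KO main effects of -0.15 ± 0.08 and -0.15 ± 0.10. Among 18 of 18 genes for collagen folding, modification and crosslinking 0 were called and 10 were above 0 for LPS in WT (median 0.00403), against 12 of 18 in KO (median 0.12). Plod3, a lysyl hydroxylase, had an LPS main effect of 0.16 ± 0.10. Loxl3, a lysyl oxidase relative, had an LPS main effect of 0.19 ± 0.13 and a KO main effect of -0.26 ± 0.13. Colgalt2, which adds galactose to collagen, had a KO main effect of 0.32 ± 0.10 (adjusted p = 0.366, edgeR).

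Among 18 of 20 tested matrix proteases and inhibitors 0 were called and 9 were above 0 for LPS in WT (median 0.00464), as were 9 of 18 in KO (median -0.000378). Hpse, the heparanase that trims the heparan sulfate chains of perlecan, had the highest LPS main effect of the tested genes in the 5 pathway lists, at 0.90 ± 0.19 (adjusted p = 0.176, edgeR), 1.03 ± 0.27 in WT and 0.78 ± 0.27 in KO. The aggrecanase Adamts5 had an LPS main effect of 0.45 ± 0.24, and Adamts4 and Mmp17 had KO main effects of -0.37 ± 0.16 and -0.19 ± 0.09. Of 16 TGF-beta pathway genes, a route that induces matrix genes in many tissues, 0 were called and 11 were above 0 for LPS in WT (median 0.07), against 7 of 16 in KO (median -0.02). Tgfb1 and its receptor Tgfbr2 had LPS main effects of 0.24 ± 0.11 and 0.17 ± 0.07. Tgfbr2 had a KO main effect of -0.22 ± 0.07 (adjusted p = 0.374, edgeR) and Ltbp1, which binds latent TGF-beta, one of 0.27 ± 0.11.

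Of the marker lists of cells that make or border these sheets, 10 of 11 tested mural cell genes and 12 of 15 endothelial genes had an LPS difference above 0 in WT (medians 0.20 and 0.13), against 3 of 11 and 11 of 15 in KO (medians -0.09 and 0.04). Choroid plexus markers had 4 of 10 above 0 in WT and 3 of 10 in KO, and astrocyte markers 7 of 8 and 2 of 8. Border macrophage markers had 6 of 7 above 0 in WT and 0 of 7 in KO (medians 0.11 and -0.54). Of 9 thalamus markers, genes of a neighbouring region, all had an LPS difference above 0 in WT (median 0.55), their summed level being 60.2 to 76.7 CPM in WT saline, 62.1 to 146 in WT LPS, 48.6 to 86.4 in KO saline and 62.2 to 114 in KO LPS. Without the 3 libraries richest in thalamus markers (WT LPS 1, WT LPS 4 and KO LPS 1) the genotype-by-LPS difference of Nid1 was -0.66 ± 0.25 (log2, SE). That difference was below 0 for 11 of 12 meningeal markers (median -0.87) and 7 of 7 border macrophage markers (median -0.71). It was below 0 for 10 of 11 mural, 10 of 15 endothelial, 8 of 8 astrocyte, 7 of 10 choroid plexus, 7 of 9 thalamus and 4 of 10 hippocampal neuron markers. The part of these cells in the Nid1 value was not tested. Of all marker genes only 1, in the hippocampal neuron list, was called in any comparison: C1ql2, a dentate granule cell gene, named after its value was seen, fell by 1.00 on the log2 scale in the KO main effect (adjusted p = 0.00645, edgeR).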

How the data were processed

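The deposited table holds whole-number counts per gene, which the authors made from trimmed reads; per the submitters' processing notes the tools were Trimmomatic 0.38, FastQC, MultiQC and featureCounts 1.6.0 on mm10. Per the labels' protocols, RNA came from a column kit and libraries from the NEBNext Ultra kit. The aligner, annotation version and strand setting are not given in the sources used here. All gene IDs matched GENCODE M21, from which symbols, positions and exon lengths were taken. No column was left unused, and no 2 libraries of a group agreed within counting noise.

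All 20 libraries were fitted together with edgeR 4.0.16 (R 4.3.3; TMM scaling, low counts filtered by group, robust quasi-likelihood test, threshold 0.05 after Benjamini-Hochberg adjustment over 16419 genes). SEs are those of log2 fold changes from the same fit. CPM and RPKM were computed from the counts. Low genes had few reads (Lama1 12 to 143), which limits their precision. Alternatives were limma 3.58.1 (voom with quality weights), DESeq2 1.42.0 and other filters, scalings and library subsets. The test was checked on simulated data.

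The members and all lists were chosen with earlier results of these data known. Genes named from the pathway lists were those past the threshold or, failing that, the 2 with the smallest p in each main effect, and the 8 genes most like Nid1 were taken by Pearson r of log2 CPM. The marker lists cover meningeal fibroblasts, border macrophages, endothelial and mural cells, choroid plexus, thalamus, hippocampal neurons and astrocytes.

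Groups share replicate numbers. The deviations of same-numbered libraries from their group means correlated at 0.26 to 0.85 in 30 of 30 pairs (median 0.46). Libraries of another number but the same kind (replicates 1 and 2, or 3 to 5) correlated alike (median 0.45), and once centred within each kind, same-numbered libraries of replicates 3 to 5 correlated at a median of 0.02. The labels do not say what the numbers mark. The fit with the number as a block is given beside the 1 member result whose call it changed.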

Additional observations from a re-analysis of the deposited data

Results flagged for a closer look

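Of 40 sets of 5 libraries (10 genes in 4 groups), 5 had a highest library whose gap to the next exceeded Dixon's critical value of 0.71 as a share of the range. Chance marks about 1 in 20 sets where these are independent and normally spread. Here members varied together and each set mixes both library kinds, so nothing is read from the count beside that rate. All 5 flagged values were in replicate 1 libraries. Col4a2 was at 99.7 CPM in WT saline 1, 79.5 CPM in WT LPS 1 and 110.2 CPM in KO LPS 1. Col4a1 was at 72.8 CPM in KO LPS 1, and Hspg2 at 15.8 CPM in WT saline 1.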

How the results depend on the processing

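The count of 0 members called for LPS in WT, LPS in KO, KO against WT after LPS and the LPS main effect was the same in every alternative run. For KO against WT after saline it was 4 with limma-voom and quality weights (Nid1, Lama1, Lama2 and Lamb1, with 2.2% of all genes called) and 3 in replicates 3 to 5 alone (Nid1, Lama1 and Lamb1, with 3.22%). For the KO main effect it was 2 with limma-voom (Lama1 and Lamb1, with 3.26%), 2 in replicates 3 to 5 alone, and 1 (Lamb1) both with the replicate number as a block and with a term for the library kind (0.926% of genes called). The cause was not tested. Nothing is read from the calls of Nid1 for KO against WT after saline, since that difference is part of the value it was chosen by. The replicate block changed no other call of a member. Leaving out each library in turn left every count at 0 to 0. The Nid1 genotype-by-LPS difference of -0.79 was -0.54 without KO saline replicates 4 and 5, ran from -0.87 to -0.68 with each library left out, from -0.90 to -0.57 in the other settings, and was -0.79 with the replicate block. Removing those 2 libraries was proposed from an earlier analysis, and 3 fits (replicates 2 to 5 alone, and both library removals with the block) were added after seeing the data.

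Over all genes, the KO main effect called 72 genes by edgeR, 122 by DESeq2, 176 with the block, 152 with the library term, 536 with limma-voom, 10 of 17718 in replicates 1 and 2 and 1257 of 15523 in replicates 3 to 5. KO against WT called 28 after saline and 24 after LPS by edgeR, 48 and 53 by DESeq2, 59 and 63 with the block, 47 and 54 with the library term, 362 and 62 with limma-voom, 3 and 4 in replicates 1 and 2, 500 and 118 in replicates 3 to 5, and 18 and 14 with only the 2 groups compared. LPS called 0 genes in WT and 1 in KO, and at most 3 and 7 in the alternatives; the LPS main effect called 7, from 0 (replicates 1 and 2) to 27 (block). Of 60 log2 differences of members, 60 kept their sign with DESeq2 size factors, 36 with any 1 library left out and 28 in all 15 other settings.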

Other observations

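Genes most like Col4a2 across the 20 libraries were looked up after its values were seen. By Pearson r of log2 CPM, centred on each library kind, they were Ap1g2 (0.97), Gramd1a (0.96), Col4a1 (0.96), Ubp1 (0.96), Aifm3 (0.96), Bicral (0.96), Dvl1 (0.95), Iqce (0.95), Col11a1 (0.95) and Epha10 (0.95). Each r was 0.97 or more within replicates 1 and 2, and from 0.35 (Col11a1) to 0.77 (Col4a1) within replicates 3 to 5. Ap1g2, a clathrin adaptor subunit, was at 11.9 to 14.7 CPM in WT saline 1, WT LPS 1 and KO LPS 1 and at 1.22 to 3.12 CPM in the other 17 libraries. Ubp1, a transcription factor, was at 113 to 123 CPM in those 3 and at 31.7 to 54.0 CPM in the other 17, and Col11a1, a fibrillar collagen chain, at 13.4 to 23.9 CPM against 0.831 to 3.74 CPM. None of these ranges overlapped.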
